A study of Arabidopsis thaliana with 10 samples.

Results

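The WRKY transcription factors of groups IIa and IIb were followed in roots of Arabidopsis thaliana. The genes were chosen by their locus codes: WRKY18, WRKY40 and WRKY60 form group IIa, and WRKY6, WRKY9, WRKY31, WRKY42, WRKY47, WRKY61 and WRKY72 were taken for group IIb. All 10 were among the 27826 rows of the deposited table, 3 in group IIa and 7 in group IIb, and all 10 carry these names in RefSeq (assembly TAIR10.1). The family was proposed with earlier results of the same contrast known, among them the lower level of WRKY18 in the mutant. The differences between the genotypes below are therefore descriptions, and no p-value is given for a single member. WRKY36 (AT1G69810), also placed in group IIb in general accounts of the family, was not on the list and is counted here with the 57 other WRKY genes of the table.

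WRKY proteins are plant transcription factors that bind a short DNA element, the W box, found in many genes of defence and stress responses. The group IIa proteins carry a leucine zipper, bind one another as well as themselves, and are known in Arabidopsis as partly redundant repressors of basal defence and of abscisic acid responses. Group IIb proteins are their nearest relatives, and several of them act in nutrient and barrier functions of the root as well as in immunity.

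Transcripts were measured on 10 Affymetrix arrays, 5 of the Col-0 wild type and 5 of mcu123, which the labels give as a triple knockout of MCU, the pore protein of the mitochondrial calcium uniporter. Both genotypes were grown for 20 days in sterile hydroponics, with 16 h of light at 21 °C and 8 h of darkness at 17 °C, and received no treatment beyond the cutting of the root from the shoot. Each array carries RNA of pooled roots, and nothing in the labels says that the pools came from separate growth batches, so p-values may reflect technical spread alone. The sources used here name neither the alleles nor the insertion sites.

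The values are RMA log2 intensities, 1 unit being a 2-fold change in signal, and every array has a median of 4.30. The targeted genes were examined first. MCU1 was lower in mcu123 by 1.66 (SE 0.13) and MCU3 by a difference of -1.98 (SE 0.16), both at adjusted p = 0.0004 in the limma fit over all rows, with no overlap between the genotypes. MCU2 was at 2.86 ± 0.29 and 2.77 ± 0.27 (SD, n = 5 each), and whether its probes lie outside the disrupted part is not known here. Both means were below the array median, and signal this low could not be told from background, so a loss of MCU2 transcript might not show. Root markers gave signal in both genotypes, among them CASP1 at 9.47 and 9.25 and EXPA7 at 7.56 and 7.84. Of 5 photosynthetic shoot markers, LHCB1.1 (1.35 and 1.29) and LHCA1 (1.31 and 1.43) had very low signal, while RBCS1A was at 5.56 ± 0.94 and 6.03 ± 1.16. PSAF was at 3.02 and 3.20, and RCA at 4.72 and 4.49, above the array median. The list mean of these shoot markers ran from 2.83 to 3.51 in the wild type and from 3.03 to 3.76 in mcu123. In pooled roots, fewer cells that express a gene and less transcript per cell cannot be told apart. One array, mcu123 replicate 3, stood apart on the first principal component (57.2) and had the lowest array weight (0.39). Differences are therefore given with and without it. At the other end of that component lay mcu123 replicate 2 (-37.6), and leaving it out moved some differences the other way.

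WRKY6, WRKY18 and WRKY40 had the largest differences of the mean, each about 1 log2 unit lower in mcu123. Of the 5 mcu123 arrays, 5, 4 and 1 in turn lay below the lowest wild-type array. For WRKY72 this number was 4, and for WRKY31 and WRKY47 it was 3, so WRKY40 was less clearly separated than its mean difference implies. WRKY31 and WRKY72 also had lower means, although mcu123 replicate 3 was their highest mcu123 array and their differences were larger without it. Without mcu123 replicate 2 these differences were smaller, at -0.52 and -0.45. WRKY47 was slightly lower, and the differences of WRKY60, WRKY61, WRKY9 and WRKY42 were smaller than their standard errors or close to them. In all, 7 of 10 members had a lower mean in mcu123, where 47.3% of all rows did, and the median difference was -0.47 for the members and 0.01 for all rows. None of the 10 passed limma's test after Benjamini-Hochberg adjustment over all rows at 0.05, a threshold that 0.0431% of rows passed in either direction. At an unadjusted p under 0.05, 3 of 10 were lower and none higher, where 4.08% of all rows were lower. Because these genes were proposed from this contrast, nothing is read from those counts.

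**Figure D1:**
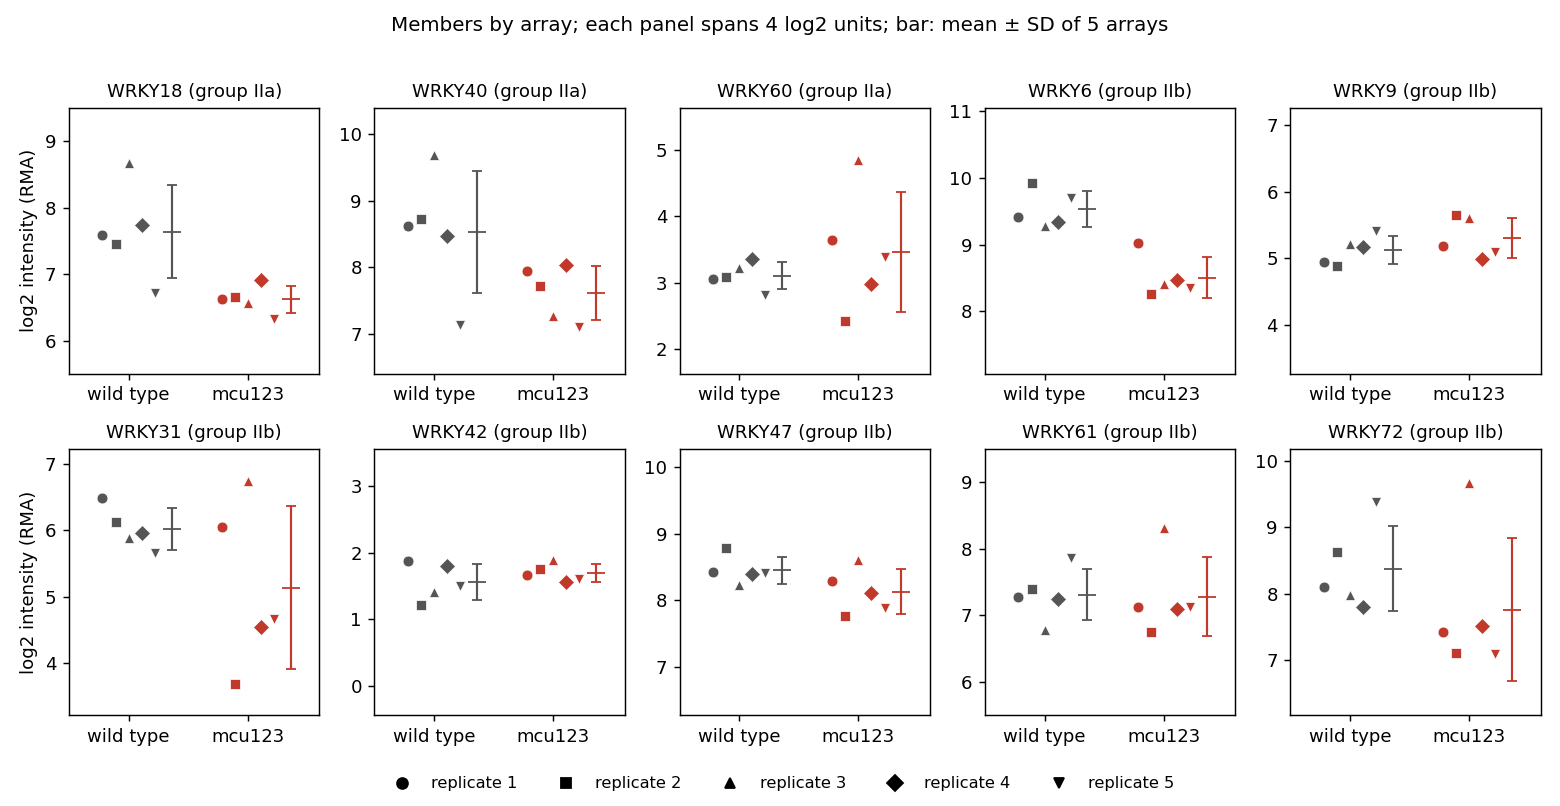
RMA log2 intensity of each member on each array, wild type in grey and mcu123 in red, with a marker shape for each replicate number and a bar for the mean ± SD of 5 arrays. Every panel spans the same number of log2 units. WRKY6 separates the genotypes, WRKY18 and WRKY40 overlap through wild type replicate 5, and WRKY31, WRKY60, WRKY61 and WRKY72 have mcu123 replicate 3 as their highest mcu123 array.

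Group IIa was led by WRKY18 and WRKY40, while WRKY60 did not share their pattern. WRKY18 (AT4G31800), a repressor of basal defence that also takes part in systemic resistance, was at 7.59, 7.45, 8.67, 7.74 and 6.72 in wild type replicates 1 to 5. In mcu123 replicates 1 to 5 it was at 6.62, 6.66, 6.57, 6.91 and 6.33. Wild type replicate 3 was far above the others and replicate 5 lay within the mcu123 range, so that 4 of 5 mcu123 arrays were below the lowest wild-type array. The means were 7.63 ± 0.70 and 6.62 ± 0.21 (SD, n = 5 each), a difference of -1.01 (SE 0.28, 95% interval -1.62 to -0.41), or a signal 2.02-fold lower. Leaving out wild type replicate 3 gave -0.76, leaving out wild type replicate 5 gave -1.24, and the difference was -1.0 without mcu123 replicate 3.

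WRKY40 (AT1G80840), the group IIa repressor that responds within minutes to wounding and elicitors and that also represses abscisic acid response genes, spread more widely. Its wild-type values were 8.63, 8.73, 9.69, 8.47 and 7.14, and its mcu123 values 7.95, 7.72, 7.27, 8.03 and 7.11. As for WRKY18, wild type replicate 3 was highest and replicate 5 lowest, and that lowest wild-type value was matched by the lowest mcu123 value. The means were 8.53 ± 0.91 and 7.62 ± 0.41, a difference of -0.91 (SE 0.37, 95% interval -1.72 to -0.11), or 1.88-fold lower, with 1 of 5 mcu123 arrays below the lowest wild-type array. With 1 array left out the difference ran from -1.26 (wild type replicate 5) to -0.62 (wild type replicate 3), and it was -0.83 without mcu123 replicate 3.

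WRKY60 (AT2G25000), which acts with the other group IIa proteins in abscisic acid responses, gave low signal, at 2.81 to 3.36 in the wild type. In mcu123 it was at 3.65, 2.42, 4.84, 2.98 and 3.39. The high mcu123 value was again replicate 3, and the difference of 0.35 (95% interval -0.40 to 1.1) became 0.00 without that array. No detection calls were available, so low signal of this kind could not be told from background.

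In group IIb, WRKY6 was lower in every mcu123 array than in any wild-type array. WRKY6 (AT1G62300) is induced in senescence and by pathogens, and in roots it is known as a repressor of the phosphate exporter gene PHO1 and as a factor needed for growth at low boron. It was at 9.42, 9.92, 9.28, 9.34 and 9.70 in the wild type and at 9.03, 8.25, 8.41, 8.46 and 8.34 in mcu123. The nearest arrays of the genotypes were wild type replicate 3 and mcu123 replicate 1. The means were 9.53 ± 0.27 and 8.50 ± 0.31, a difference of -1.04 (SE 0.17, 95% interval -1.41 to -0.66), or 2.05-fold lower. Leaving out any 1 array kept the difference between -1.17 and -0.94, and it was -1.01 without mcu123 replicate 3. WRKY6 was the single member whose groups did not overlap, where 1.02% of all rows were lower in mcu123 without overlap. It passed the adjusted test in 2 of 16 alternative fits, with a trended and robust variance prior (0.126% of rows called) and without mcu123 replicate 1 (0.0575% of rows called). As the family was proposed from this contrast, these calls are given for completeness and support nothing.

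WRKY31 and WRKY42 are the closest relatives of WRKY6. WRKY31 (AT4G22070) was at 6.49, 6.12, 5.88, 5.96 and 5.65 in the wild type and at 6.04, 3.69, 6.74, 4.55 and 4.66 in mcu123. The mcu123 arrays thus ran from the lowest to the highest value of all 10, with replicate 1 within the wild-type range, replicate 3 above it and the other 3 below every wild-type array. The difference was -0.88 (SE 0.47, 95% interval -1.9 to 0.13), and it was -1.28 without mcu123 replicate 3 and -0.52 without mcu123 replicate 2. WRKY42 (AT4G04450), which also represses PHO1 and is known to activate the phosphate transporter gene PHT1;1, gave very low signal, at 1.22 to 1.87 and 1.56 to 1.89. Its difference was 0.14 (95% interval -0.17 to 0.44), and 0.09 without mcu123 replicate 3.

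WRKY72 and WRKY61 are a pair of close relatives, and WRKY72 is known to contribute to basal immunity in Arabidopsis, including defence against root-knot nematodes. WRKY72 (AT5G15130) was at 8.10, 8.63, 7.98, 7.80 and 9.37 in the wild type and at 7.42, 7.11, 9.66, 7.51 and 7.09 in mcu123. Apart from mcu123 replicate 3, the highest of the 10 arrays, every mcu123 value was below every wild-type value. The difference of -0.62 (SE 0.46, 95% interval -1.61 to 0.38) became -1.09 without that array and -0.37 without wild type replicate 5, the highest wild-type array. WRKY61 (AT1G18860) was at 6.78 to 7.86 in the wild type and at 6.75 to 7.13 in mcu123, except for 8.31 in replicate 3. Its difference was -0.03 (95% interval -0.62 to 0.55) and moved to -0.29 without that array and to 0.10 without wild type replicate 5.

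WRKY47 (AT4G01720), which is known for a role in aluminium tolerance through cell wall genes, was at 8.43, 8.78, 8.23, 8.40 and 8.41 in the wild type and at 8.29, 7.76, 8.61, 8.11 and 7.89 in mcu123. Its difference was -0.32 (SE 0.17, 95% interval -0.68 to 0.05), -0.43 without mcu123 replicate 3 and -0.22 without mcu123 replicate 2. WRKY9 (AT1G68150), a regulator of suberin genes under salt stress, was at 4.88 to 5.42 and 4.99 to 5.65. Its difference was 0.18 (95% interval -0.17 to 0.53), and 0.11 without mcu123 replicate 3. WRKY9, WRKY42 and WRKY60 were the members with a higher mean in mcu123.

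**Figure D2:**
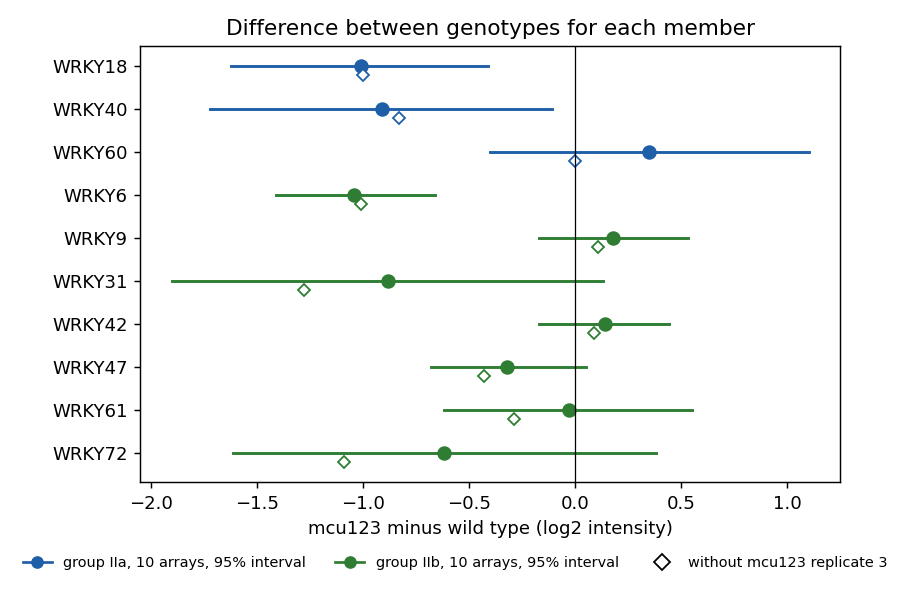
Difference between mcu123 and the wild type for each member, in log2 intensity, with group IIa in blue and group IIb in green. Filled circles with lines give the value and 95% interval from 10 arrays, and open diamonds the value without mcu123 replicate 3. The values of WRKY18, WRKY40 and WRKY6 lie near -1, and WRKY31 and WRKY72 move from -0.88 to -1.28 and from -0.62 to -1.09 without that array. Without mcu123 replicate 2, which is not drawn, WRKY31 and WRKY72 were at -0.52 and -0.45.

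The members varied in different ways across arrays of the same genotype. To describe them without the contrast, values were centred on the mean of each genotype, and all 45 pairs of members were correlated over the 10 arrays. No pair passed an exact two-sided permutation test within genotypes after adjustment over the 45 pairs, by Pearson's r or by Spearman's rho. At an unadjusted p under 0.05 there were 8 pairs by each, and 3 by r and 5 by rho without mcu123 replicate 3. Without the 2 arrays farthest from the median of the first gene of a pair, 1 pair remained by r and 0 by rho. No share over pairs of all rows was computed, so nothing is read from these counts. WRKY18 and WRKY40 deviated together, with r = 0.93 (exact permutation p = 0.012, adjusted 0.16) and rho = 0.77 (p = 0.021, adjusted 0.20). Without wild type replicates 3 and 5, the arrays farthest from the median, r was 0.64, so much of the relation rests on those arrays. By r with WRKY40, WRKY18 ranked 34 among 27825 other rows.

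WRKY61 and WRKY72 gave r = 0.93 (exact permutation p = 0.006, adjusted 0.16) and rho = 0.73 (p = 0.017, adjusted 0.20), with r = 0.47 once wild type replicate 5 and mcu123 replicate 3 were left out. WRKY31 and WRKY60 gave r = 0.91 (exact permutation p = 0.010, adjusted 0.16) and rho = 0.84 (p = 0.022, adjusted 0.20), with r = 0.62 without mcu123 replicates 2 and 3. These pairs also rest in large part on a few arrays. WRKY18 and WRKY61 leaned in opposite directions, with r = -0.55 (exact permutation p = 0.031, adjusted 0.20) and rho = -0.70 (p = 0.028, adjusted 0.21), but r was -0.17 without wild type replicates 3 and 5. The other pairs under 0.05 by r were WRKY31 and WRKY47 (0.83), WRKY40 and WRKY61 (-0.64), WRKY47 and WRKY61 (0.74), and WRKY47 and WRKY72 (0.73). Their exact permutation p-values were 0.014, 0.028, 0.027 and 0.04 (adjusted 0.16, 0.20, 0.20 and 0.22). Without the arrays farthest from the median their r was 0.52, -0.44, 0.51 and 0.33. WRKY6 and WRKY47 gave r = 0.56 (exact permutation p = 0.12, adjusted 0.40) and rho = 0.76 (p = 0.014, adjusted 0.20). Without mcu123 replicate 3 their r was 0.89 and passed (exact permutation adjusted p = 0.047), the single pair to do so, but no pair passed by rho in that setting. Without wild type replicate 2 and mcu123 replicate 1, the arrays farthest from the median, r for this pair was 0.40.

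Of the 10 members, 6 had their highest mcu123 value in replicate 3, namely WRKY60, WRKY31, WRKY42, WRKY47, WRKY61 and WRKY72, where 26.3% of all rows did. WRKY18, WRKY40, WRKY6 and WRKY9 did not. WRKY36, the group IIb gene outside the list, was also highest there, at 9.74 against 8.47 to 8.82 in the other mcu123 arrays, and this gene was looked at after its values were seen. In mcu123 replicate 2, 5 members had their lowest mcu123 value, namely WRKY60, WRKY6, WRKY31, WRKY47 and WRKY61, where 23.4% of all rows did.

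**Figure D3:**
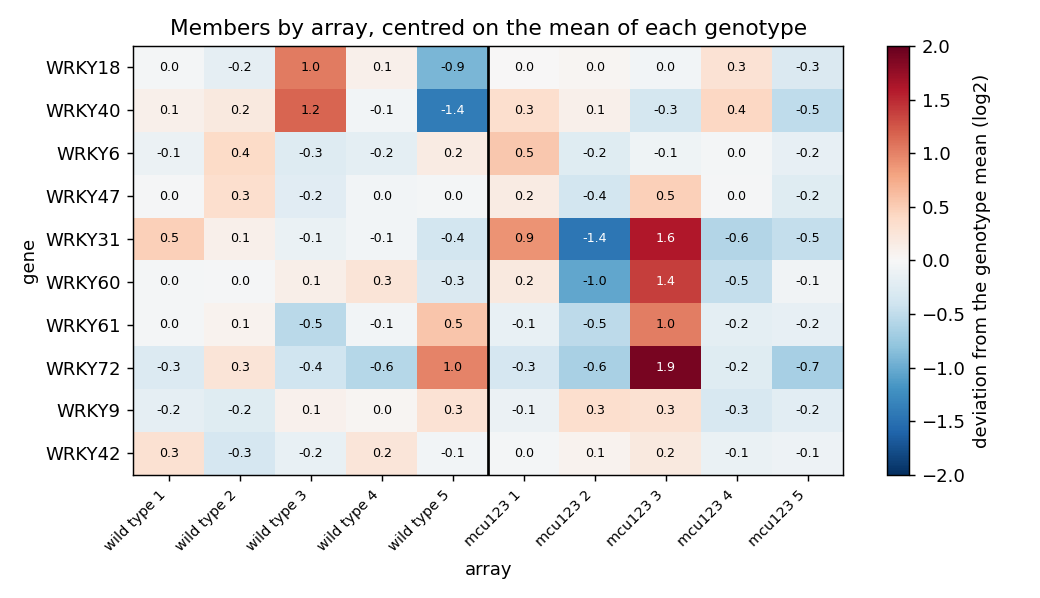
Deviation of each member on each array from the mean of its genotype, in log2 units, from blue (lower) to red (higher). WRKY18 and WRKY40 share the high wild type replicate 3 and the low wild type replicate 5, and WRKY31, WRKY60, WRKY61 and WRKY72 share the high mcu123 replicate 3.

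WRKY40 is a textbook member of the early stress response, so the members were set beside 14 other genes that rise quickly after wounding, touch or elicitors. Of these, 13 had a lower mean in mcu123 (47.3% of all rows did), with a median difference of -0.59. None passed limma's test over all rows, and 5 were lower at an unadjusted p under 0.05 (4.08% of all rows were). Because this list too was chosen with earlier results of these data known, nothing is read from those counts. The zinc finger gene ZAT12 had the smallest p, with 6.94 ± 0.66 and 5.74 ± 0.50 (difference -1.20, limma adjusted p = 0.30), followed by the ethylene response factor gene ERF6 (difference -0.77, limma adjusted p = 0.49). WRKY33, WRKY46 and WRKY53 are on this list and also among the other WRKY genes.

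The mean of the 14 genes was 6.13, 6.67, 6.70, 5.97 and 5.24 in wild type replicates 1 to 5, and 5.88, 5.48, 5.33, 5.82 and 5.26 in the mcu123 replicates. Wild type replicate 5 was thus the lowest of the 10 arrays and lay at the mcu123 level. Centred on genotype means, WRKY40 followed this list closely, with r = 0.93 (exact permutation p = 0.00014, adjusted 0.0014 over the 10 members) and rho = 0.94 (p = 0.00049, adjusted 0.0049). Without wild type replicates 3 and 5 its r was 0.82, and without mcu123 replicate 3 it was 0.92. For WRKY18, r was 0.75 (exact permutation p = 0.077, adjusted 0.24) and rho was 0.60 (p = 0.11, adjusted 0.53), and r was 0.19 without those wild-type arrays. WRKY6 gave r = 0.18 (exact permutation p = 0.63, adjusted 0.76) and rho = 0.04 (p = 0.93, adjusted 0.95), although without wild type replicates 3 and 5 its r was 0.82. The other 7 members had r from -0.52 to 0.13, and none passed. How many of all rows follow the list as closely as WRKY40 was not examined.

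Wild type replicate 5 and mcu123 replicate 5 had nearly the same level of the early stress list, 5.24 and 5.26. On these arrays WRKY40 was at 7.14 and 7.11, WRKY18 at 6.72 and 6.33, and WRKY6 at 9.70 and 8.34. WRKY40 was thus nearly equal on these arrays, while WRKY6 stood at the wild-type level on one and the mcu123 level on the other. For WRKY40, other arrays of similar list mean were less alike. Wild type replicate 4 (5.97) had WRKY40 at 8.47 and WRKY18 at 7.74. In mcu123 replicates 1 and 4 (5.88 and 5.82), WRKY40 was at 7.95 and 8.03 and WRKY18 at 6.62 and 6.91. These are comparisons of single arrays picked after their values were seen. The part of the early stress level in the WRKY18 and WRKY40 differences was not tested.

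**Figure D4:**
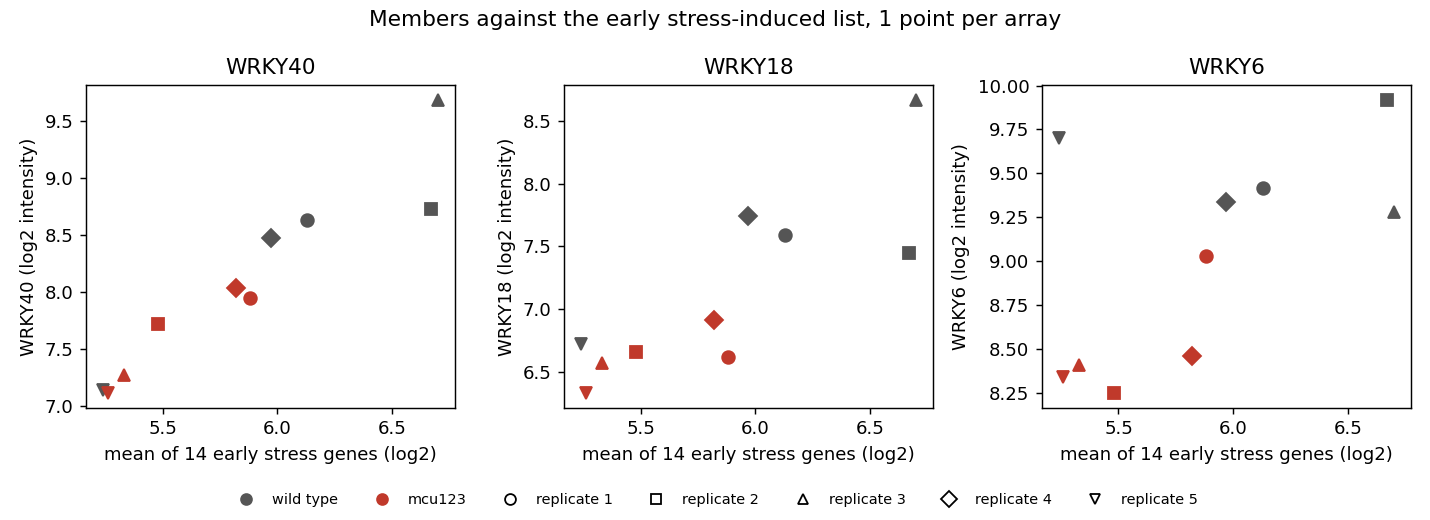
WRKY40, WRKY18 and WRKY6 (log2 intensity, vertical axes) against the mean log2 intensity of 14 early stress-induced genes (horizontal axes), 1 point per array, wild type in grey and mcu123 in red. WRKY40 is lowest on the arrays of lowest list mean, and wild type replicates 2 and 3 differ in WRKY40 (8.73 and 9.69) at nearly the same list mean (6.67 and 6.70). Wild type replicate 5, at 9.70 for WRKY6, lies with the other wild-type arrays above all mcu123 arrays.

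The rows most like each member were named by the highest Pearson r of centred values over the 10 arrays, among 6259 named rows of at least median signal, for the 8 members at or above that median. For WRKY40 these were TCH3, a calmodulin-like touch gene (0.98), ERF2, an ethylene response factor (0.97), and LOX4, a lipoxygenase of jasmonate synthesis (0.96). For WRKY18 they were AOC3, an allene oxide cyclase of jasmonate synthesis (0.97), GDPD2 (0.96) and XT1, a xyloglucan xylosyltransferase (0.96). For WRKY6 they were SPHK2, a sphingosine kinase (0.96), SUVR5 (0.93) and the vacuolar nitrate transporter CLC-A (0.92). These values are the highest among all candidates and carry no test.

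For WRKY72 the nearest were CYP707A3, an abscisic acid hydroxylase (0.99), PHT1;1 (0.98) and CYP71A16 (0.98). PHT1;1 has near-identical sister genes, so its probes may not tell them apart. For WRKY61 they were SMZ (0.98), GLTP2 (0.97) and TGA10 (0.97), for WRKY31 they were APK2A (0.95), CRCK3 (0.94) and VIP2 (0.93), and for WRKY47 they were NIG (0.97), the clock gene GI (0.97) and SAL2 (0.96). For WRKY9 they were KCS1, a fatty acid elongase (0.94), BSK5 (0.94) and MCM5 (0.93). Without mcu123 replicate 3, all of these named likenesses stayed at or above 0.89.

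Genes reported elsewhere as targets of these factors were examined from lists of general knowledge, chosen with earlier results of these data known. Of 12 reported targets of WRKY18 and WRKY40, 7 had a lower mean in mcu123 (47.3% of all rows did), the median difference was -0.01, none passed limma's test over all rows, and 2 were lower at an unadjusted p under 0.05 (4.08% of all rows were). These were ERF109, a redox-responsive transcription factor gene, at 6.58 ± 1.21 and 5.09 ± 0.85 (difference -1.50, limma adjusted p = 0.53), and the jasmonate repressor gene JAZ8, at 3.18 ± 1.03 and 2.14 ± 0.56 (difference -1.05, limma adjusted p = 0.62). Both were highest in wild type replicate 3, at 8.17 and 4.79, as WRKY18 and WRKY40 were. The abscisic acid genes ABI5, ABF4 and RAB18, picked after their values were seen, had differences of -0.01, 0.01 and 0.04. MYB2 and DREB2A on the same list were lower, with differences of -0.42 and -0.62, and MYB2 gave low signal. EDS1 and UPOX had differences of 0.22 and -0.19. ABI4 and DREB1A, of very low signal, had differences of 0.03 and -0.02. AOX1A, the mitochondrial alternative oxidase gene that WRKY40 is known to repress, had a difference of 0.32 (SE 0.21, limma adjusted p = 0.79).

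Of 7 reported targets of group IIb proteins, 4 had a lower mean in mcu123, near the share of all rows (47.3%). None passed limma's test over all rows (0.0431% of rows did), and none had an unadjusted p under 0.05 in limma (4.08% of all rows were lower). With 7 genes, these counts say little. PHO1, the phosphate exporter gene repressed by WRKY6 and WRKY42, was at 10.92 and 10.97 (difference 0.05, SE 0.10, limma adjusted p = 0.94). The members of smallest p were RAV1, a transcription factor gene repressed by WRKY6 (difference -0.32, limma adjusted p = 0.73), and CYP94B3, a jasmonoyl-isoleucine hydroxylase gene bound by WRKY9 (difference -0.52, limma adjusted p = 0.83). The PHO1 signal did not differ beyond the spread between arrays. PHO1 was named after its values were seen, and a link to the lower WRKY6 signal was not tested.

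Lower means were also common among the WRKY genes that were not members, WRKY36 included. Of the 57 other WRKY genes, 41 had a lower mean in mcu123 (47.3% of all rows did), with a median difference of -0.16 and a range from -1.50 to 0.36. None passed limma's test over all rows, and 15 were lower and none higher at an unadjusted p under 0.05 (4.08% of all rows were lower). The groups did not overlap for 4, all lower (1.02% of all rows). The 3 of smallest p were WRKY48 at 9.06 ± 0.58 and 7.56 ± 0.42 (difference -1.50, limma adjusted p = 0.096), WRKY38 (difference -1.30, limma adjusted p = 0.25) and WRKY25 (difference -0.66, limma adjusted p = 0.29). WRKY36 was at 9.18 ± 0.27 and 8.84 ± 0.52 (difference -0.34, limma adjusted p = 0.80). No test compared the members with the other WRKY genes.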

How the data were processed

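The deposited table holds log2 intensities which the authors computed by RMA (background correction, equalised arrays, probe summary), per the submitters' processing notes. The sorted values of all 10 columns were identical, so a shift shared by all genes cannot be read. No source used here names the array model, the probe grouping or the genome build, so coordinates are left out. Precision is limited by the number of arrays. Locus codes were named through RefSeq (27241 of 27826 matched).

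limma 3.58.1 in R 4.3.3 was fitted to all rows with a genotype term, lmFit and eBayes, two-sided, with Benjamini-Hochberg adjustment at 0.05 and no filter. Replicate numbers were not used as a block, and same-numbered arrays did not deviate together (correlations -0.21 to 0.09). Exact permutation of arrays within genotypes used 14400 arrangements. Members and lists were chosen with earlier results of these data known. The naming rule took all members, the targeted genes, up to 3 called or else the 2 of smallest p of each list, the 3 other WRKY genes of smallest p, and the 3 rows most like each member. PHO1, AOX1A, ABI5, ABF4, RAB18 and WRKY36 are named outside it, chosen after their values were seen. The rest of the WRKY18 and WRKY40 target list is named beside them. The fit and the correlation test were tested on simulated data. Alternatives covered low signal, cyclic loess, prior, array weights, replicate block, a minimum change and each array left out.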

Additional observations from a re-analysis of the deposited data

Results flagged for a closer look

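Of 20 sets of 5 arrays (10 members in each genotype), 3 held an array far from the rest, where chance gives about 1 in 20. In parentheses is the distance to the next array divided by the range of the set. WRKY72 in mcu123 replicate 3 was at 9.66, with the nearest mcu123 array at 7.51 (0.838). WRKY61 in mcu123 replicate 3 was at 8.31, with the nearest at 7.13 (0.757). WRKY6 in mcu123 replicate 1 was at 9.03, with the nearest at 8.46 (0.737), and this array still lay below every wild-type array.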

How the results depend on the processing

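The 12 rows called over the whole table became 7 without the lowest 30% of rows, 35 with a trended and robust prior, 30 with array weights, 3 against a minimum log2 change of 0.5, 11 with cyclic loess and 8 with the replicate block, and ran from 5 to 22 with each array left out. The count of members called was 0 as deposited, 1 (WRKY6) with the trended and robust prior, 0 with the replicate block, and 0 to 1 with each array left out, the 1 being WRKY6 without mcu123 replicate 1. WRKY42 was not among the rows kept by the low-signal filter. The numbers did not mark shared pools, so the replicate block has no claim over the unpaired fit. Pairs of members that passed numbered 0 as deposited, with cyclic loess and without the 2 farthest arrays, and 1 (WRKY6 and WRKY47) without mcu123 replicate 3. The 10 member differences gave 139 values under other settings, and 139 moved by less than 1 SD between arrays. Most of them could not have moved further, because leaving out 1 of 5 arrays always shifts a mean by less than that SD. The low-signal filter and the replicate block leave the difference itself unchanged. That count therefore says little about how robust the differences are. WRKY61 kept its sign in 5 of 10 fits with an array left out (-0.29 to 0.10). The WRKY60 difference vanished (0.00) without mcu123 replicate 3, and the other 8 members kept their sign in 10 of 10. The cause of these shifts was not tested.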
